A study of Mus musculus with 9 samples.

Results

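The data described here are the Ct values of 84 wound healing genes in the colon of untreated mice. The mice were C57bl6J females of 8 to 9 weeks that received regular drinking water, with neither dextran sodium sulphate (DSS) nor dipotassium glycyrrhizate (DPG), and were killed with the other groups on day 7. RNA of 5 of them was pooled and the pool was run on 3 arrays, which are 3 of the 9 arrays of the series. The other 6 arrays hold mice given DSS, without or with DPG, and are not used here. All 84 panel genes in these 3 arrays were taken, with no choice by level. The arrays repeat 1 pool, so every SD below is technical and says nothing about the spread between mice.

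An array is a PCR plate with 1 primer assay per gene. Ct is the PCR cycle at which the SYBR green signal of a well passes a threshold, so a lower Ct means more template, and 1 cycle corresponds to a factor of 2 when amplification is complete. In each array the mean Ct of the housekeeping genes Actb, B2m, Gapdh, Gusb and Hsp90ab1 was subtracted from the Ct of a gene, which gives delta Ct. A delta Ct of 0 is the level of this reference, and positive values lie below it. Where a well gave no Ct, or one later than 38, it was set to 38, which is a delta Ct of 16.00, so the level of such a gene is only known to be at or under that limit. Each assay reports copies of its own target and does not scale with transcript length, but no source used here states how efficient each assay was. The order of genes below is therefore an order of assay readings.

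Wound healing in the gut draws on tissue that is already in place. A sheet of epithelium joined by E-cadherin rests on a basement membrane of type IV collagen and laminin, over a stroma of fibroblasts in fibrillar collagen and a wall of smooth muscle. Integrins, each a pair of an alpha and a beta subunit, hold cells to this matrix. Injury adds a clot of fibrin, cytokines and chemokines that call in leukocytes, growth factors that drive cells to divide and move, and proteases that clear and rebuild the matrix.

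The 3 arrays gave nearly the same picture of the pool. The reference Ct was 21.99, 21.99 and 22.02, and the median Ct of the panel was 27.88, 27.89 and 27.84. In each array 77 genes had a Ct under 35. Across the 76 genes with a Ct under 35 in every array, Pearson's r between arrays lay between 0.997 and 0.999, which describes genes and not independent replicates. The 5 housekeeping genes spanned 6.78 cycles, or 110-fold, from Actb (Ct 19.68 ± 0.023, SD, n = 3 arrays) through B2m (20.19), Gapdh (21.60) and Hsp90ab1 (22.08) to Gusb (26.45), a lysosomal enzyme, and 27 panel genes came earlier than Gusb. The well for genomic DNA gave no Ct in any array. The wells that follow reverse transcription read 24.02, 23.95 and 23.98, and the positive PCR wells, which hold their own template, read 20.69 ± 0.28 (SD, n = 3 arrays), latest in the first array and earliest in the second.

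Genes of muscle, matrix and the cytoskeleton led the panel, and the cytokines Il6, Cd40lg, Il10 and Il2, the growth factor Csf3, and Plg, Ctsg and Fga closed it. Delta Ct ran from -1.51 for Col3a1 to the limit of 16.00 for Ctsg and Fga, with a median of 5.84, which is 57.4-fold below the reference. By limits of 4 and 8 cycles, 23 genes were called abundant (delta Ct under 4), 38 intermediate and 15 scarce (8 or more, with every Ct under 35). Another 6 had a Ct of 35 or later, or no Ct, in at least 1 array and are called late, and 2 had no Ct below 38 in any array. Just inside the first limit lay Itga5 (3.97) and just outside it Itgav (4.01). Mmp9 (7.91) and Il1b (8.16) lay on either side of the second. The limits are round numbers on a continuous scale, and the counts move with them and with the reference.

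**Figure D1:**
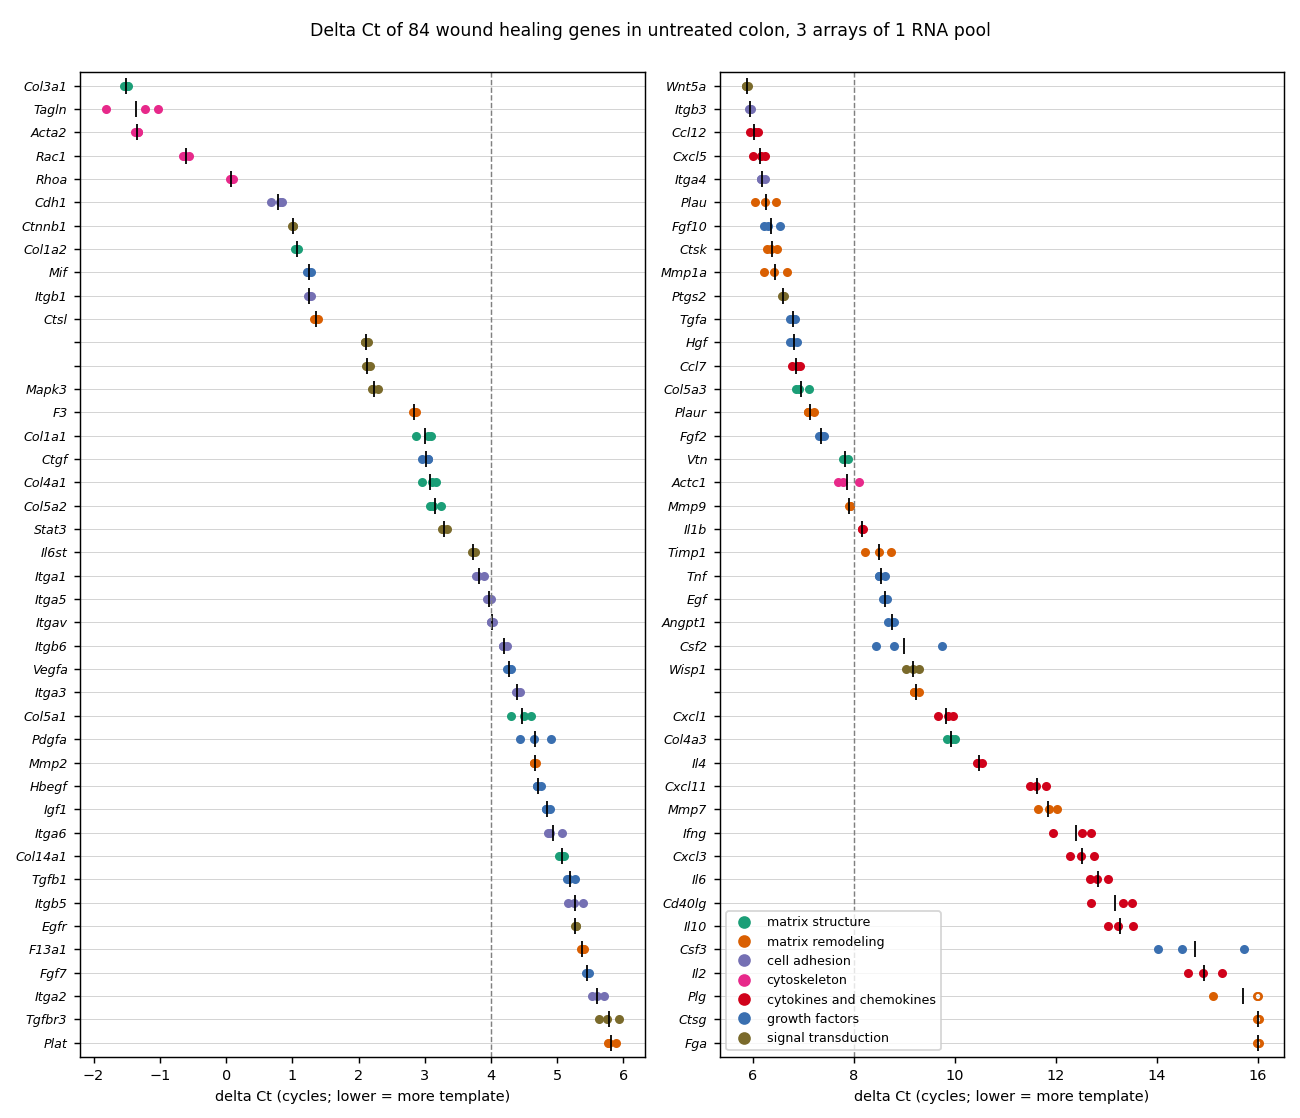
Delta Ct in cycles (horizontal axis, lower means more template) of the 84 genes in order of their mean, the upper 42 on the left and the lower 42 on the right, whose axes differ. Points are the 3 arrays, open where there was no Ct below 38, ticks are means, colours are gene classes, and dashed lines are the limits of 4 and 8; 3 rows carry no name. Col3a1, Tagln and Acta2 stand at the top with means from -1.51 to -1.35, and Ctsg and Fga at the bottom at 16.00.

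The template was concentrated in a few genes. When 2 was raised to minus delta Ct and summed over the panel, Col3a1 made up 18.1% of the sum, Tagln 16.6% and Acta2 16.2%, together 50.8%. The 10 highest genes held 81.8% of it, and the lower 42 genes together 1.40%. From Col3a1 to Cxcl3, the last gene with every Ct under 35, the readings spanned 14.02 cycles, or 16574-fold.

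Neighbours in the order often could not be told apart. Of the 83 neighbouring pairs, 48 had overlapping array values and 35 did not. Compared within each array, where both genes share a plate, 45 neighbouring pairs kept the same order in all 3 arrays, 10 of them among the overlapping ones, and 38 did not. A gene overlapped with a median of 2 others, and 17 genes overlapped with none, among them Rac1, Rhoa, Cdh1, Col1a2, Ctsl, Stat3 and Il1b. The first 3 places were thus not ordered with certainty: Tagln overlapped with both Col3a1 and Acta2, while Col3a1 and Acta2 did not overlap with each other.

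The cytoskeleton class stood highest, with a median delta Ct of -0.61 against 5.84 for the panel. It has 5 genes, of which 4 were abundant. Acta2, the actin of smooth muscle, had a Ct of 20.65, 20.66 and 20.64. Tagln, transgelin, an actin-binding protein of smooth muscle, had 20.17, 20.96 and 20.79, so that its first array lay clearly before the other two. The delta Ct of Acta2 was -1.35 ± 0.023 and that of Tagln -1.36 ± 0.41 (SD, n = 3 arrays), and their difference of 0.01 ± 0.41 cycles was smaller than its spread. Rac1 (-0.61 ± 0.040) and Rhoa (0.07 ± 0.025), small GTPases that steer protrusion and contraction in most cells, followed, and Rac1 was 1.61-fold above Rhoa. Actc1, the actin of heart muscle, fell far behind its relative Acta2. Its Ct was 30.09, 29.68 and 29.80, and within an array it came 9.21 ± 0.21 cycles after Acta2, which is 591-fold less.

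Structural genes of the matrix had a median delta Ct of 3.81, with 5 abundant, 4 intermediate and 1 scarce gene of 10. Without Col5a1 and Col5a3, which the gene list of the methods does not name, the median was 3.12. Col3a1, the chain of type III collagen, read 20.45, 20.49 and 20.53 and was the highest gene of the panel, earlier than Gapdh. It overlapped in its arrays with Tagln alone. Col1a2 and Col1a1, which build type I collagen together, had a delta Ct of 1.07 ± 0.030 and 3.01 ± 0.12. The second chain thus came 1.94 ± 0.092 cycles before the first, or 3.84-fold higher, although the protein holds more of the first, and Col3a1 was 5.97-fold above Col1a2. Of the type V collagens, which sit inside fibrils, Col5a2 (3.15) was 2.50-fold above Col5a1 (4.47) and 14.0-fold above Col5a3 (6.95). Col14a1, a collagen on the surface of fibrils, lay at 5.07 ± 0.042. The 6 fibrillar collagen genes together held 22.9% of the panel sum.

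Basement membrane collagen was split by chain. Col4a1, found in nearly every basement membrane, read 25.16, 25.10 and 24.98 (delta Ct 3.08 ± 0.11). Col4a3, best known from kidney glomerulus and lung, read 31.92, 31.84 and 32.01 and was 115-fold lower, with a difference of 6.84 ± 0.16 cycles. Vtn, vitronectin, a plasma and matrix protein made mainly in the liver, read 29.86, 29.78 and 29.81, and its delta Ct of 7.82 ± 0.048 did not overlap with that of any other structural gene.

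Cell adhesion was the most even class. All 12 genes lay between 0.78 and 6.19, 4 abundant and 8 intermediate, with a median of 4.30. Cdh1, E-cadherin, was the highest with a Ct of 22.83, 22.80 and 22.70, followed by Itgb1, the beta subunit shared by most matrix receptors, with 23.27, 23.25 and 23.25. Both stood well apart from the other 10, the nearest of which, Itga1, had a delta Ct of 3.82. Among beta subunits, Itgb1 was 7.67-fold above Itgb6, a subunit of epithelium, 16.1-fold above Itgb5 and 25.8-fold above Itgb3, which forms a vitronectin receptor with Itgav.

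Among alpha subunits the range was narrow. Itga1, a collagen receptor subunit, came first with 25.88, 25.80 and 25.79 and was 3.44-fold above Itga2, the other collagen receptor subunit on the panel. Itga5, the fibronectin receptor subunit, had a delta Ct of 3.97 ± 0.037, and Itga4, a subunit of leukocytes that also binds VCAM, was the lowest of the class at 6.19 ± 0.042, 4.66-fold below Itga5. Itga3 (4.40) and Itga6 (4.94), which pair with beta subunits to bind laminin, differed by 0.54 ± 0.087 cycles. Itgav, which pairs with several beta subunits, stood at 4.01 ± 0.019 and was 2.38-fold above its partner Itgb5.

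**Figure D2:**
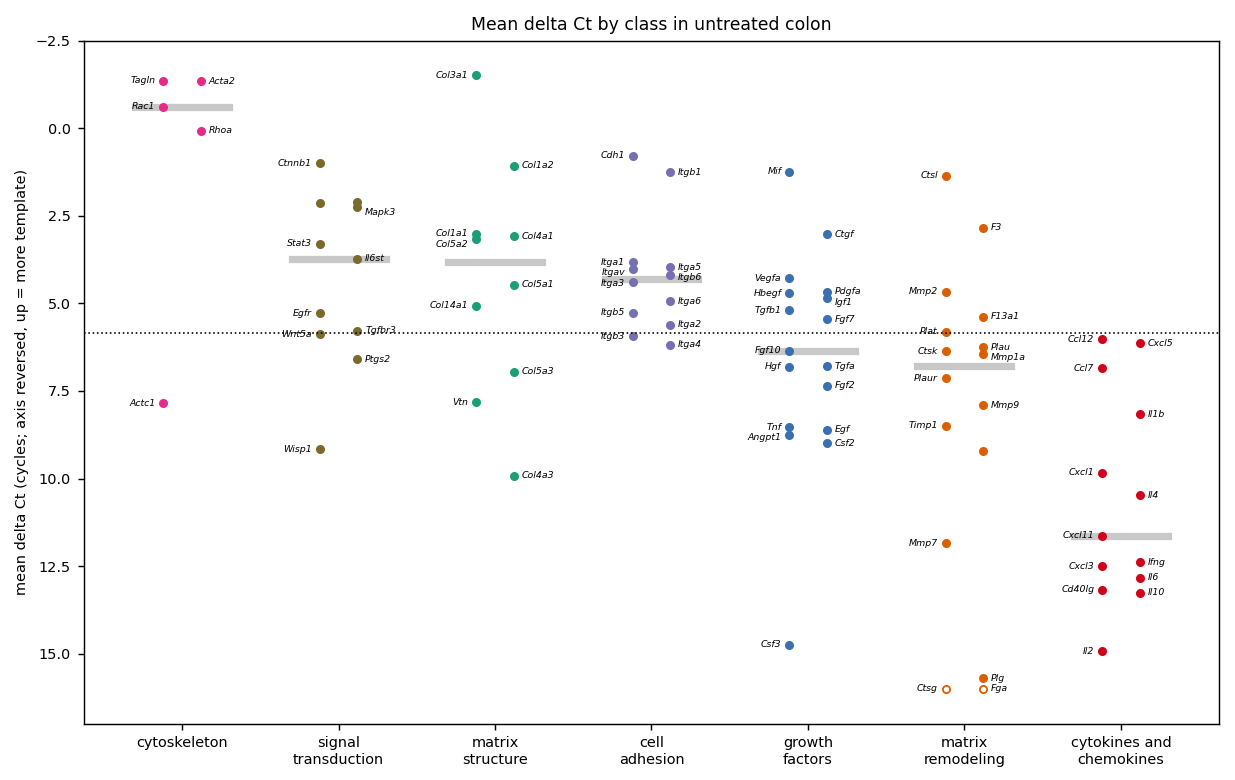
Mean delta Ct in cycles over the 3 arrays (vertical axis, reversed so that up means more template) of each gene in the 7 classes. Grey bars are class medians, the dotted line is the panel median of 5.84, open points had no Ct below 38, and 3 points carry no name. The cytoskeleton median of -0.61 stands highest and the cytokine median of 11.63 lowest.

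Signal transduction genes had a median delta Ct of 3.73, with 6 abundant, 4 intermediate and 1 scarce gene of 11. Ctnnb1, beta-catenin, which links E-cadherin to actin and also carries the Wnt signal, led with 23.00, 22.99 and 23.02. It came 0.23 ± 0.081 cycles after its partner Cdh1, with no overlap between their arrays. Mapk3, a kinase that passes growth factor signals to the nucleus, read 24.28, 24.19 and 24.23 (delta Ct 2.23 ± 0.051) and overlapped with no other gene. Stat3, the transcription factor of interleukin 6 signalling, had 3.29 ± 0.045, and Il6st, the receptor subunit gp130 shared by that family, 3.73 ± 0.022.

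Receptors and enzymes of this class followed lower. Egfr, the EGF receptor, read 27.27, 27.27 and 27.28 (delta Ct 5.27 ± 0.0092). Tgfbr3, a co-receptor of TGF beta, lay at 5.77 ± 0.15 and Wnt5a, a ligand of mesenchyme, at 5.87 ± 0.028, on either side of the panel median. Ptgs2, the inducible cyclooxygenase, read 28.60, 28.58 and 28.59 (6.59 ± 0.019) and so was measurable in healthy colon. Wisp1, a CCN matricellular gene now named Ccn4, was the lowest with 9.17 ± 0.13.

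Growth factors spread widely, from Mif at 1.25 to Csf3 at 14.74, with a median of 6.35. Of 17 genes, 2 were abundant, 10 intermediate, 4 scarce and 1 late. Mif, the macrophage migration inhibitory factor, is stored by many resting cells and read 23.21, 23.28 and 23.25. Ctgf, now named Ccn2, a CCN protein of connective tissue, had 25.04, 25.04 and 24.98 and stood 70.8-fold above Wisp1. No other growth factor was abundant. Of the vascular factors, Vegfa (4.28 ± 0.030) was 1.30-fold above Pdgfa (4.66 ± 0.23) and 22.1-fold above Angpt1 (8.74 ± 0.054), the ligand of the endothelial receptor Tie2.

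Stromal factors lay in the middle of the order. Igf1 had a delta Ct of 4.85 ± 0.036 and was 3.87-fold above Hgf (6.80 ± 0.068), the ligand of the Met receptor. Fgf7, the keratinocyte growth factor made by fibroblasts for epithelium, read 27.46, 27.44 and 27.45, and was 1.87-fold above Fgf10 and 3.74-fold above Fgf2. Tgfb1, which drives matrix production, had 5.19 ± 0.061 and was 1.49-fold above its co-receptor Tgfbr3.

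The readings of the EGF receptor ligands on this panel were clearly ordered. Hbegf read 26.74, 26.69 and 26.71, Tgfa 28.81, 28.73 and 28.82, and Egf 30.56, 30.65 and 30.61. Hbegf was 4.21-fold above Tgfa, and Tgfa was 3.53-fold above Egf. The receptor lay between the first 2 ligands and was 10.1-fold above Egf.

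Colony-stimulating factors and Tnf were low. Tnf, which is listed with the growth factors, read 30.60, 30.49 and 30.51 (delta Ct 8.53 ± 0.068). Csf2, the factor of granulocytes and macrophages, read 31.73, 30.43 and 30.81, with an SD of 0.67 cycles. Csf3, the factor of granulocytes, read 37.70, 36.01 and 36.51. Both were latest in the first array and earliest in the second, as were the positive PCR wells, and the part of the array in this spread was not tested. Within an array Csf3 came 5.75 ± 0.20 cycles after Csf2, 53.8-fold less, with a smaller spread than either gene alone. Every Ct of Csf3 was later than 35, and with a limit of 35 cycles the difference was 4.01 cycles.

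**Figure D3:**
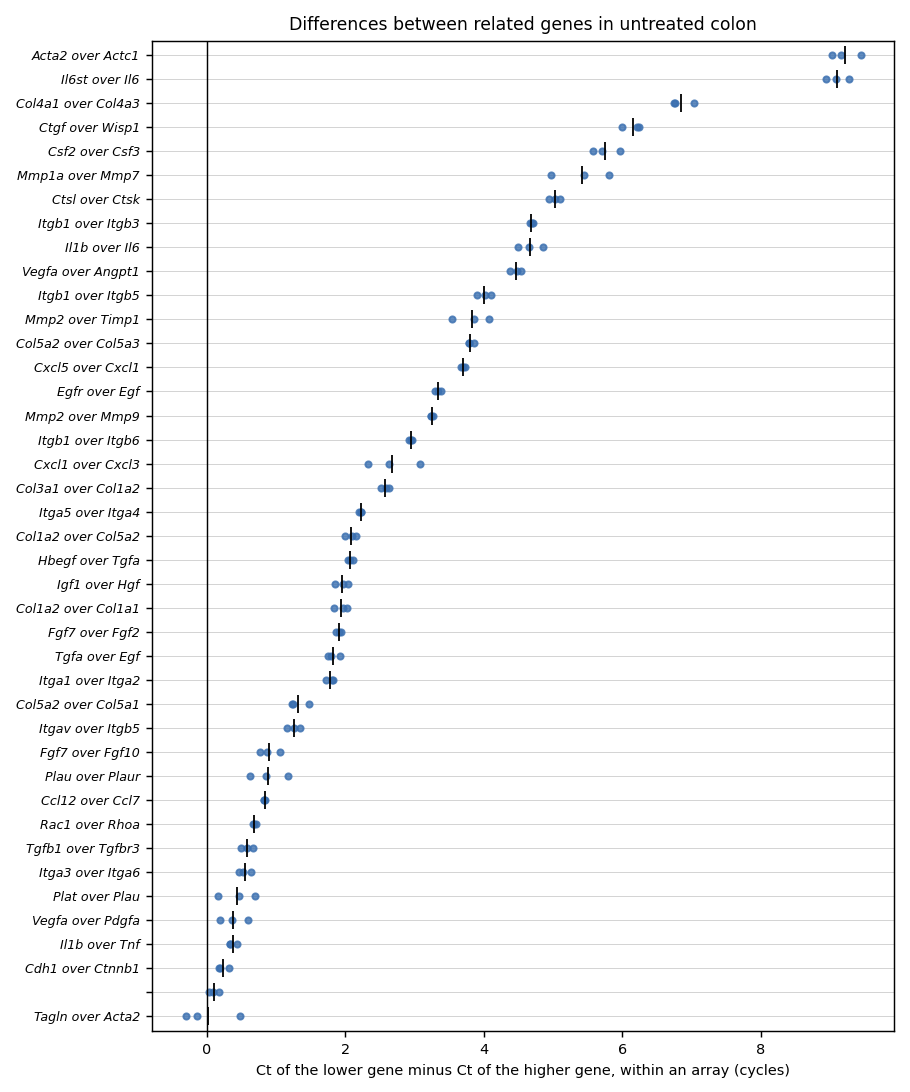
Difference in Ct in cycles within an array (horizontal axis) for 41 pairs of related genes, each named as the higher over the lower gene. Points are the 3 arrays, ticks their means and the line at 0 marks equal readings; no reference gene enters, and 1 row carries no name. Acta2 over Actc1 is the widest at 9.21 cycles, and Tagln over Acta2 is the only pair whose points lie on both sides of 0.

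Genes of matrix remodeling reached from abundant to undetected, with a median of 6.78 over 16 genes. Of these 2 were abundant, 8 intermediate, 3 scarce, 1 late and 2 without a Ct below the limit. Ctsl, the lysosomal cathepsin L, led with 23.37, 23.33 and 23.35. It was 32.4-fold above Ctsk, cathepsin K, a collagenase of osteoclasts and fibroblasts (delta Ct 6.37 ± 0.10). F3, tissue factor, which starts coagulation, was the other abundant gene with 24.86, 24.82 and 24.85.

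Metalloproteinases differed widely among themselves. Mmp2, a gelatinase of stroma, read 26.64, 26.68 and 26.67 and was 9.49-fold above Mmp9, the gelatinase of leukocytes, which read 29.91 in all 3 arrays. Mmp1a, an interstitial collagenase, had a delta Ct of 6.44 ± 0.23. Mmp7, matrilysin, a product of Paneth cells in the small intestine, read 33.64, 34.02 and 33.88 and was 42.5-fold below Mmp1a. Timp1, an inhibitor of metalloproteinases, was scarce at 8.49 ± 0.25 and lay 14.2-fold below Mmp2.

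Of the plasminogen system, RNA of the activators and of the urokinase receptor was measurable in every array, while that of plasminogen gave a Ct in only 1. Only RNA was read, so this does not show whether the plasminogen protein was in the tissue. Plat (5.81 ± 0.065) and Plau (6.25 ± 0.21), the tissue and urokinase type activators that cleave plasminogen to plasmin, differed by 0.44 ± 0.27 cycles with no overlap of their arrays. Plaur, the urokinase receptor, was 1.84-fold below Plau, at 7.13 ± 0.074. Plg, plasminogen, which is made in the liver, gave a Ct of 37.10 in the first array and none in the other two. F13a1, the subunit of factor XIII that cross-links fibrin and is carried by macrophages and platelets, read 27.39, 27.38 and 27.37. Fga, a fibrinogen chain of hepatocytes, gave no Ct in any array. Ctsg, the cathepsin G of neutrophil and mast cell granules, gave 38.15 in the first array, above the limit, and none in the other two. Fga and Ctsg were thus at least 65566-fold below the reference.

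Cytokines and chemokines were the lowest class, with a median delta Ct of 11.63 and none of 13 genes above the panel median. Of these 3 were intermediate, 6 scarce and 4 late, and all 13 gave a Ct below 38 in every array. Together they held 0.284% of the panel sum. The 3 highest were chemokines. Ccl12 and Ccl7, which attract monocytes, read 28.02, 27.93 and 28.12 and 28.86, 28.76 and 28.95, and Ccl12 was 1.78-fold above Ccl7 with a difference that varied by only 0.0058 cycles (SD). Cxcl5, a neutrophil chemokine of epithelium, read 28.23, 27.99 and 28.18. It stood 12.97-fold above Cxcl1, which read 31.95, 31.66 and 31.88, and Cxcl1 was 6.39-fold above Cxcl3, which read 34.27, 34.74 and 34.51. Cxcl11, which attracts activated T cells, had 11.63 ± 0.15.

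Il1b was the highest interleukin, with a Ct of 30.16, 30.16 and 30.17 (delta Ct 8.16 ± 0.0092). It was 1.29-fold above Tnf and 25.4-fold above Il6, which read 34.65, 35.02 and 34.82. The receptor subunit Il6st was 549-fold above this ligand. Il4, the cytokine of type 2 helper T cells, had 32.52, 32.43 and 32.47, and Ifng, that of type 1 helper and natural killer cells, 34.51, 33.94 and 34.71. The latest were Cd40lg, the T cell ligand of CD40 (35.31, 34.68 and 35.52), the anti-inflammatory Il10 (35.52, 35.03 and 35.25) and Il2, the T cell growth factor (36.60, 37.27 and 36.92). Ifng, Cd40lg and Il10 were earliest in the second array, while Cxcl3, Il6, Il2 and Cxcl11 were latest there, so these low genes shared no array order.

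Promoter sequence was read for a TATA box, the DNA element that fixes the start of transcription in many inducible genes. RefSeq promoter windows (GRCm38.p6, 250 bases before to 50 after a gene's start) were matched for 54 of the 84 genes. The letters TATAAA were searched on the gene's own strand, with their first base 20 to 35 bases before the start, and were found in 8 of these 54 genes and in 1.84% of all 32851 windows. Here and below, a gene counts if any of its windows matched, while the share is over single windows. Counts of genes and shares of windows are therefore not on the same scale. This motif and its position were chosen after the levels and the matches of 4 motifs had been seen. Anywhere in the window, again on the gene's own strand alone, TATAAA was found in 12 panel genes and 8.32% of all windows. A CArG box was found in 2 genes and 1.63%, any of 3 NF-kB type sites in 4 genes and 0.849%, and the AP-1 site TGACTCA in 1 gene and 2.56%. The other strand was not searched, so these are not counts of all genes that hold such a site. As 64.3% of the panel had a window, under 80%, a comparison between abundant and scarce genes is void and none is made. The 8 stretches of 30 bases are shown because they carry this shared feature, with TATAAA in capitals, in order of level from Ccl12 to Il2.
Ccl12 (chr11:82101802-82101831, plus strand): ctctttgtgtctTATAAAagtcagatggaa
Mmp1a (chr9:7464101-7464130, plus strand): aagaagtctctaTATAAAgatggaagttcc
Il1b (chr2:129371153-129371182, minus strand): gctttttaggacTATAAAacaagggaggga
Tnf (chr17:35202019-35202048, minus strand): ttccccaagggcTATAAAggcggccgtctg
Mmp7 (chr9:7692052-7692081, plus strand): gctgagaagccaTATAAAtttctccagccc
Ifng (chr10:118441004-118441033, plus strand): ccttcgatcaggTATAAAactggaagccag
Cxcl3 (chr5:90786059-90786088, plus strand): ccagtcatcatgTATAAAaggggttcgcag
Il2 (chr3:37125968-37125997, minus strand): cagcattaacagTATAAAttgcctcccatg

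The 8 genes ranged in delta Ct from 6.02 for Ccl12 to 14.93 for Il2. Because of how the motif was chosen, nothing is read from this. A match of letters is a description of the sequence and not a measured binding site.

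Markers of the tissue layers were read to check the label of colon, with the caution that fewer cells of a type and less RNA per cell cannot be told apart in a tissue extract. The 4 epithelial genes (Cdh1, Itga6, Itgb6 and Egfr) had a median delta Ct of 4.57, between 0.78 for Cdh1 and 5.27 for Egfr. The 3 muscle genes had a median of -1.35, between -1.36 for Tagln and 7.86 for Actc1. For the 8 fibroblast genes it was 3.81, between -1.51 for Col3a1 and 6.35 for Fgf10. Of the myeloid cells, the 4 genes F13a1, Plaur, Mmp9 and Il1b had a median of 7.52, between 5.38 for F13a1 and 8.16, and the 4 genes of lymphocytes (Cd40lg, Ifng, Il2 and Il4) 12.78. The lymphocyte list holds only cytokines and the ligand Cd40lg. Itga4, described above as a subunit of leukocytes, is on none of these lists and lay at 6.19. Summed as 2 to the power of minus delta Ct, the muscle genes gave 6.06, 4.57 and 4.94 in the 3 arrays, the fibroblast genes 3.71, 3.66 and 3.65, the epithelial genes 0.666, 0.688 and 0.737, and the lymphocyte genes 0.000983, 0.00115 and 0.000983. The high first value for muscle follows Tagln. Of the 2 plasma protein genes of hepatocytes, Fga gave no Ct and Plg a late one in 1 array. Ctsg, of neutrophil and mast cell granules, gave a Ct in 1 array, later than 38. The panel holds no gene specific to colon, so it cannot tell colon from another part of the gut.

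The spread between arrays grew as the level fell. The median SD of Ct was 0.0351 cycles in the abundant genes, 0.0551 in the intermediate, 0.127 in the scarce and 0.335 in the late genes, and 0.0551 over the 81 genes with a Ct below 38 in every array. Of these 81, it was under 0.1 for 54 genes and over 0.2 for 13. Among genes with every Ct under 35 the widest were Csf2 (0.67), Tagln (0.42), Ifng (0.40), Timp1 (0.25) and Cxcl3 (0.235), and Tagln was the only abundant gene among them. Of the same 81 genes, 37 were latest in the first array and earliest in the second, the order of the positive PCR wells, and 19 had the opposite order.

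**Figure D4:**
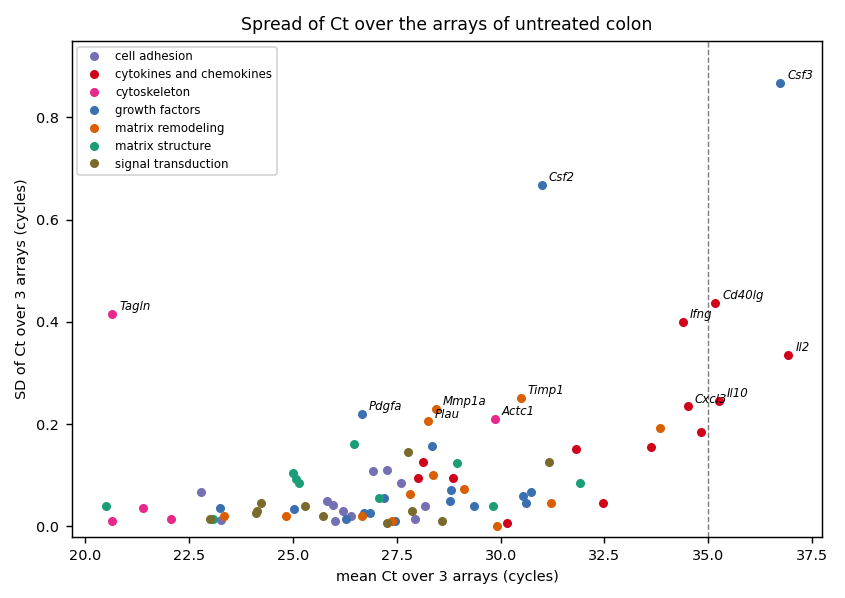
SD of Ct over the 3 arrays (vertical axis, cycles) against mean Ct (horizontal axis, cycles) for the 81 genes with a Ct below 38 in every array, coloured by class, with genes over 0.2 named. The dashed line marks a Ct of 35; most points lie under 0.1, while Tagln at 0.42, Csf2 at 0.67 and Csf3 at 0.87 stand apart.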

How the data were processed

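Total RNA of colon was reverse transcribed (1 microgram) and run for 40 cycles on a mouse wound healing PCR array. RNA of 5 mice was pooled per group, and of the 3 groups, as the titles of the samples give them, only the 3 untreated arrays were used. Raw Ct per well was deposited on a log2 scale without normalization, together with average Ct and average delta Ct, on the same scale, from the array maker's web software. The deposited averages of Ct differed from those computed here by at most 0.0033 cycles. Their average delta Ct implies a reference Ct of 23.84, and not the 5 genes of the methods. A search over sets of wells found the same value for the panel genes Itga3 and Mif with Hsp90ab1, taken as a geometric mean. A match found by such a search can arise by chance and does not show which genes the software used. Tables of fold changes, p-values and false discovery rates compare groups and were not used.

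Delta Ct, its mean and SD over arrays, order, classes and pairs were computed with Python 3.11.15, numpy 2.4.6 and pandas 2.3.3, and figures drawn with matplotlib 3.10.9. No test was made, since the arrays repeat 1 pool. Classes follow the gene list of the methods, except for 8 panel genes that it does not name (Col5a1, Col5a3, Rhoa, Cxcl5, Egf, Hbegf, Tgfbr3 and Wnt5a), which were placed here by function. Genes named are the 10 highest and lowest, the 3 highest and lowest of each class, members of 41 pairs, all markers, reference genes, late and undetected genes and those of widest spread, and others after their values were seen. Members, lists, limits and pairs were chosen with earlier results of these data known. Results of 3 genes are not reported here, but these genes are included in every count. The number of arrays limits the precision. Alternatives were limits of 35 and 40 cycles, other references, the authors' averages, medians over arrays, other band limits, 1.9 in place of 2 per cycle, and leaving out each array. All 84 genes were matched to RefSeq by accession for current names and promoter windows.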

Additional observations from a re-analysis of the deposited data

How the results depend on the processing

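The reference sets the zero of delta Ct and moves all genes alike, so it cannot change their order, the class medians against the panel median or the pairs. The panel median of 5.84 became 6.24 with Gapdh alone, 5.26 without Actb, 5.39 without B2m, 5.74 without Gapdh, 6.96 without Gusb, 5.96 with the geometric mean and 4.002 with the authors' averages. Abundant genes numbered 15 without Gusb in the reference, 15 with band limits 1 cycle lower and 42 with the authors' averages, against 23. Scarce genes numbered 9 with limits 1 cycle higher and 6 with the authors' averages, against 15. With a limit of 35 cycles 2 genes were late and 6 had no Ct below 35 in any array. With a limit of 40 cycles 1 gene, Fga, had no Ct below the limit. With 1.9 in place of 2 per cycle, the 3 highest genes held 46.9% of the panel sum. The folds between the genes of a pair fell too. Acta2 was then 368-fold above Actc1, against 591-fold, Il6st 344-fold above Il6, against 549-fold, and Col4a1 80.8-fold above Col4a3, against 115-fold. Without the 8 genes that the methods do not list, an alternative chosen after seeing the data, the class median minus the panel median was -2.73 for matrix structure, -6.82 for the cytoskeleton, 6.17 for cytokines and -2.55 for signal transduction. The other 199 of 219 recomputed counts, shares and medians stayed within 1.5 times or the array spread. Many of them could not have moved, so their number does not measure how stable the results are. Among these are the class medians against the panel median and the share of the 3 highest genes under each other reference. Of 1176 recomputed gene levels, 544 moved by more than their array spread. The 10 highest genes were the same with medians over arrays and with each array left out. They were also the same under each limit and with the authors' averages, but these are no separate check. A limit cannot move a gene whose every Ct is under 35, and the authors' averages come from the same Ct. The same holds for most of the pairs below. No level moved over 1.5 times when 1 array was left out, and the largest was 1.40 times for Csf3. Of the 41 pairs, Tagln and Acta2, whose arrays overlap, changed sign without the first array (Ct of Acta2 minus Tagln -0.23 against 0.01) and with the median over arrays (-0.15, also chosen after seeing the data), and no other pair did under the limits of 35 and 40 cycles, the authors' averages, the median or any array left out. No paired analysis was possible because 1 group was described and no test was made. Genes with a Ct of 35 or later rest on few template copies, and their order is the least certain.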
